A study of Mus musculus with 8 samples.

Results

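The epidermal growth factor (EGF) receptor ligands Hbegf, Areg, Ereg, Tgfa and Btc, the receptors Egfr, Erbb2 and Erbb3, and the receptor inhibitor Errfi1 were examined in mouse bone marrow adipocytes. These 9 genes of 54134 were chosen by symbol, with results of the same libraries known. Their own differences are therefore given as values with standard errors and without a p-value, and only other genes of the pathway carry a test. Of the 9, 7 reached 1 TPM (transcripts per 1000000, in which reads are divided by gene length and every library is brought to one sum) in at least 2 libraries and were among the 14985 genes compared. Btc and Erbb3 did not reach it and are given by level alone.

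The study asked about a senescence phenotype that glucocorticoid produces in such cells when PPARγ, the nuclear receptor that drives adipocyte differentiation, is inhibited. Wild-type mouse bone marrow stem cells had undergone adipogenic differentiation for 14 days in all 3 groups. Control (n = 2) received no further agent named in the labels. GC (n = 3) received dexamethasone, a synthetic glucocorticoid, at 1e-06 M, and GC+GW9662 (n = 3) the same dexamethasone with GW9662, a PPARγ antagonist whose dose is not given in the sources used here, both for 24 hours. No group received GW9662 alone, so its effect without dexamethasone was not measured. Nothing in the labels ties the libraries of a group to separate cultures or animals. The p-values thus reflect how far these libraries spread, which may be technical.

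EGF family ligands are made as membrane-anchored precursors and are cut free by metalloproteases, chiefly ADAM17 and ADAM10. The soluble ligand binds EGFR or ERBB4, which pair with each other or with ERBB2, a receptor without a ligand of its own, or with ERBB3, whose kinase is weak. The paired receptors feed the Ras-MAPK and PI3K-Akt routes. ERK, the last kinase of the MAPK route, induces transcription of immediate early genes and of feedback inhibitors. ERRFI1 (also called MIG6) binds the EGFR kinase directly and blocks it. In marrow stromal cells the pathway is known for favouring progenitor growth over differentiation, and amphiregulin, epiregulin and heparin-binding EGF-like growth factor are also made by macrophages.

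Promoters were read for the members with an entry in the RefSeq promoter table (build GRCm38.p6, 250 bases before to 50 after the start). Of the 9 members, Areg, Btc, Egfr, Erbb2, Errfi1 (2 entries) and Tgfa were searched. Hbegf, Ereg and Erbb3 were not. The cyclic AMP response element TGACGTCA, searched on both strands, was found in the Areg promoter, 61 bases before the start, and in 1 of the Errfi1 promoters, 51 bases before it. Of 32851 promoters in the table, 1.79% held it. The same 2 promoters were the ones among the members with TATAAA on the gene strand, 31 and 28 bases before the start, against 8.32% of the table. They are shown because a ligand and the inhibitor of its receptor carried both motifs in the same order. Each is the 150 bases before the start on the plus strand, 5′ to 3′, with the 2 motifs in capitals.
Areg, chr5:91139449-91139598: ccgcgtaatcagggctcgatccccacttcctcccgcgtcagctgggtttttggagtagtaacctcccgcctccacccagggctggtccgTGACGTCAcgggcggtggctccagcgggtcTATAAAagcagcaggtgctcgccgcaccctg
Errfi1, chr4:150854920-150855069: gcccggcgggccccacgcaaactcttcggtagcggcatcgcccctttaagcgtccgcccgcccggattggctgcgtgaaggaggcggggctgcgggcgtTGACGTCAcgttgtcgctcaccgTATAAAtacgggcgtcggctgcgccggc
The AP-1 motif TGANTCA (7.81% of the table), the glucocorticoid response element (0.475%) and the antioxidant response element TGACNNNGC (12.4%), all searched on both strands, did not occur in these windows of the 6 searched members. A match is a description of letters and not a measured binding site.

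Before the members are described, 3 properties of the libraries bear on every value. First, Fkbp5 and Tsc22d3, which glucocorticoids induce in most cells, went against the group labels. Fkbp5 stood at 446 ± 24.1 TPM (SD, n = 2) in Control, 58.5 ± 24.2 (n = 3) in GC and 95.4 ± 14.3 (n = 3) in GC+GW9662, and Tsc22d3 at 557 ± 21, 59.6 ± 7.7 and 429 ± 27.2. All directions below therefore compare the libraries labelled Control, GC and GC+GW9662. Second, summed marker genes of cell types differed between the groups. The 9 adipocyte markers summed to 1192 to 1194 TPM in Control, 37.4 to 52.6 in GC and 1084 to 1227 in GC+GW9662, with Lep at 0 in every library. The 10 macrophage markers, all detected, summed to 31397 to 32317, 9938 to 10432 and 24841 to 28886, so macrophage transcripts were abundant in cells labelled adipocytes. By the limma test described below, 8 of the 10 fell and 1 rose in GC against Control. The 8 stromal markers summed to 1321 to 1381, 52.8 to 116 and 329 to 355. The sum of the 7 neutrophil markers ran the other way, at 21 to 26.7, 249 to 550.1 and 72.4 to 83.9. It rests on few genes, since 5 were under 1 TPM in every library, among them Ltf at 0. Only 2 of the 7 were compared, and 1 rose in GC against Control. Of 7 epithelial markers, the classic cell type of this pathway, the sum was at most 2.15 TPM in any library and Krt14 and Cldn4 were at 0 throughout. In bulk RNA, fewer cells of a type and less RNA per cell cannot be told apart, and the part of these shifts in the members' differences was not tested. Last, GC replicate 1 stood apart: its profile correlated at 0.947 and 0.966 with the other GC libraries, against 0.989 between those, and its long genes were lower. Estimated depth was 20921879 to 32754758 reads per library, and counting error alone is covered by any limit that depth sets.

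**Figure D1:**
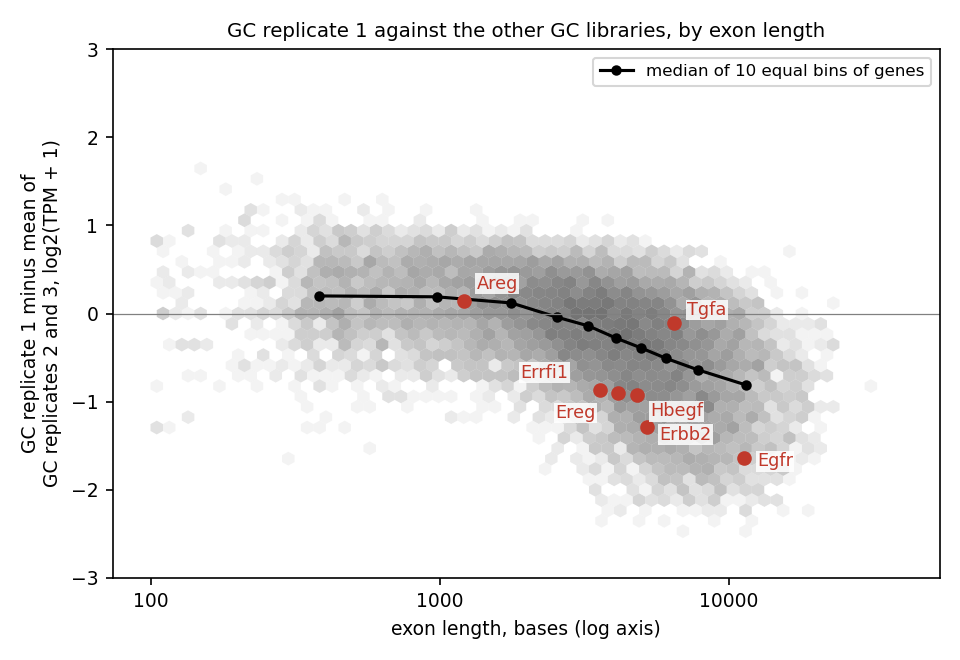
Each gene's level in GC replicate 1 minus the mean of GC replicates 2 and 3, log2(TPM + 1), is plotted against its exon length on a log axis; grey hexagons hold all tested genes (darker, more genes), black points are medians of 10 equal bins and red points are members. The bin medians run from 0.20 for the shortest genes to -0.81 for the longest, and Egfr at -1.64, Erbb2 at -1.29, Hbegf at -0.93, Ereg at -0.90 and Errfi1 at -0.87 lie well below the line, Areg lies close to it and Tgfa above it.

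In that plot of GC replicate 1 by exon length, 6 of the 7 members lay below the median of their length bin, Areg by little (0.14 against 0.19), and Tgfa lay above it. The replicate had 52.4% of the mean of the other GC libraries for Hbegf, 52.5% for Ereg and 54.2% for Errfi1, but 24.7% for Egfr and 29% for Erbb2. For Tgfa it had 20.6% of a mean of 0.107 TPM. At such a level log2(TPM + 1) keeps any difference near 0, so the place of Tgfa in the plot says little. A trend with exon length was also present between groups: the median difference of GC against Control ran from 0.18 in the shortest bin to -1.09 in the longest, and that of GC+GW9662 against Control from 0.59 to -1.68. Apart from Areg, with 1215 exon bases, the compared members have 3582 to 11326 by GENCODE M21. The plot of member differences therefore holds each member's values without GC replicate 1 and with the length trend removed, and several are printed below. Removing the trend used GENCODE M21 exon lengths, but the TPM steps of Hbegf fit 2373 counted bases and not its M21 length of 4834. Those of Tgfa (4527 against 6490), Egfr (10208 against 11326), Errfi1 (3043 against 3582) and Erbb2 (5012 against 5210) also fit a shorter length. The length-adjusted values of these members, Hbegf most of all, are therefore uncertain.

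Across the ligands and receptors, GC libraries held far more Hbegf and Ereg and less Tgfa and Egfr than Control, and GC+GW9662 libraries held less Hbegf, Ereg and Errfi1 than GC. Of the 7 compared members, 6 did not overlap between GC and Control (Hbegf, Areg and Ereg higher; Tgfa, Egfr and Erbb2 lower), where 71.9% of all compared genes did not overlap. Between GC+GW9662 and GC, 4 did not overlap (Tgfa higher; Hbegf, Ereg and Errfi1 lower), with 64.1% of all genes. Between GC+GW9662 and Control, 6 did not overlap and all were lower, with 79.0% of all genes. These counts lie near the shares for all genes, so separation of the groups in itself is no property of the family. The median difference of the 7 was 0.48, -0.79 and -1.37 on the log2 scale in the 3 comparisons, beside -0.38, -0.11 and -0.49 for all genes. Median-ratio scaling moved the latter medians to 0.06, -0.00 and 0.03, and each member's value under it is in the plot of member differences.

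**Figure D2:**
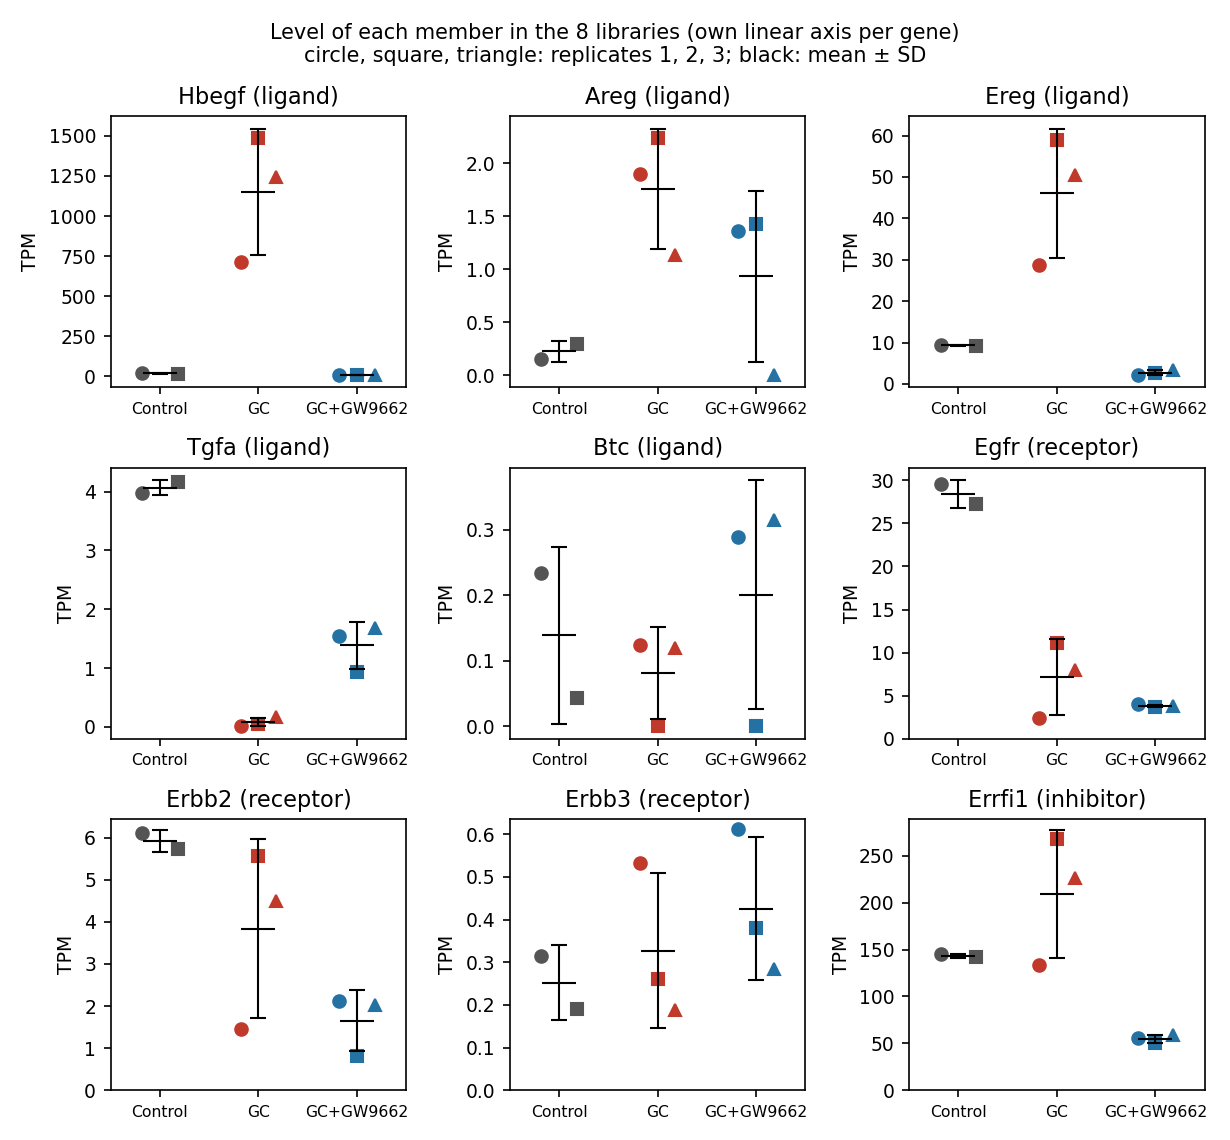
TPM of each of the 9 members (own linear axis per gene) in Control, GC and GC+GW9662; circles, squares and triangles are replicates 1, 2 and 3, and black bars are the mean ± SD. Hbegf and Ereg are high in all 3 GC libraries and lowest in GC+GW9662, Tgfa is lowest in GC, and Egfr is highest in both Control libraries.

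Hbegf encodes heparin-binding EGF-like growth factor, a ligand of EGFR and ERBB4 that is also the diphtheria toxin receptor. It lies at chr18:36504929-36515805 on the minus strand by the deposited coordinates, which are not those of GENCODE M21. Its level was 19.9 and 17.6 TPM in the Control libraries, 716, 1489 and 1245 TPM in GC, and 9.35, 8.18 and 9.6 TPM in GC+GW9662. The 3 groups were fully separate, and GC replicate 1, the lowest GC library, was still far above every Control library. Among the genes of a library ranked by TPM, Hbegf stood 6300th and 6630th in Control, 175th, 62nd and 81st in GC, and 6595th, 6674th and 6361st in GC+GW9662. The GC mean of 1149.9 ± 395 TPM was 61.3 times the Control mean of 18.8 ± 1.64, a difference of 5.80 ± 0.28 (SE) on the log2(TPM + 1) scale. GC+GW9662, at 9.04 ± 0.759 TPM, was lower than GC by a factor of 127, a difference of -6.78 ± 0.25. Neither large difference depended on GC replicate 1: without it they were 6.11 ± 0.13 and -7.09 ± 0.12. With the length trend removed they were 6.41 ± 0.16 and -6.49 ± 0.15. The smaller gap of GC+GW9662 below Control, -0.98 ± 0.28, shrank to -0.08 ± 0.16 with the length trend removed, to -0.33 under median-ratio scaling and to -0.04 under quantile normalization.

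Ereg encodes epiregulin, a low-affinity EGFR and ERBB4 ligand. Its gene at chr5:91074622-91093646 shares 152 bases with the antisense gene Gm19610, and Smart-Seq2 libraries keep no strand, although Gm19610 was at most 3.19 TPM. Ereg stood at 9.31 and 9.27 TPM in Control, 28.8, 59 and 50.5 TPM in GC, and 2.18, 2.66 and 3.31 TPM in GC+GW9662. The groups followed the order of Hbegf, with no overlap and GC replicate 1 again the lowest of GC. The GC mean, 46.1 ± 15.6 TPM, was 4.96 times the Control mean of 9.29 ± 0.0262, a log2 difference of 2.13 ± 0.30 (2.43 ± 0.18 without GC replicate 1). With the length trend removed that difference was 2.68 ± 0.22. GC+GW9662, at 2.72 ± 0.564 TPM, was lower than GC by a factor of 17, a log2 difference of -3.61 ± 0.27. GC+GW9662 was also below Control, by -1.48 ± 0.30, a gap of -0.76 ± 0.22 with the length trend removed and -0.62 under quantile normalization.

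Within GC, Hbegf and Ereg kept a nearly fixed proportion. The ratio of Hbegf to Ereg TPM was 24.9, 25.2 and 24.6 in GC replicates 1, 2 and 3, although replicate 1 held far less of each. The same ratio was 2.14 and 1.9 in Control and 4.28, 3.07 and 2.9 in GC+GW9662, below every GC value. Over the 8 libraries the log2(TPM + 1) values of the pair correlated at r = 0.96, given as a description since 3 group levels make most of it.

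Areg encodes amphiregulin, a ligand of EGFR alone. It starts 46 kb beyond the end of Ereg (chr5:91139599-91148432, plus strand) and was scarce in every library. Its levels were 0.155 and 0.29 TPM in Control, 1.9, 2.24 and 1.13 TPM in GC, and 1.36, 1.43 and 0 TPM in GC+GW9662. In estimated reads these were 2 and 4, then 23, 33 and 17, then 17, 19 and 0, where a count of 0 allows up to 3 reads or 0.223 TPM. All GC libraries exceeded both Control libraries, by 1.15 ± 0.39 on the log2(TPM + 1) scale, which understates changes at such levels. In voom, which weighs recovered reads, the value was 2.83 with a wide SE of 1.47. GC and GC+GW9662 overlapped, with a difference of -0.60 ± 0.35 that was -0.18 without GC+GW9662 replicate 3. Against Control, GC+GW9662 differed by 0.55 ± 0.39, with the library at 0 below both Control libraries and the other two above them. A change of Areg with GW9662 was therefore not resolved at this depth.

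Tgfa encodes transforming growth factor alpha, an EGFR ligand, at chr6:86195223-86275719. It stood at 3.98 and 4.16 TPM in Control, 0.0221, 0.0547 and 0.16 TPM in GC, and 1.54, 0.93 and 1.68 TPM in GC+GW9662. Tgfa thus ran opposite to Hbegf in the comparisons with GC, while both had lower TPM in GC+GW9662 than in Control. The GC levels rest on 1, 3 and 9 reads, against 191 and 214 in Control and 72, 46 and 84 in GC+GW9662. None of the groups overlapped. The difference was -2.23 ± 0.20 for GC against Control and 1.13 ± 0.18 for GC+GW9662 against GC, and both kept their direction under every alternative tried. Their size depended on how low values were treated: the first ran from -5.72 in voom to -0.84 with a pseudocount of 5, and the other from 4.57 to 0.33 under the same settings. With the length trend removed they were -1.56 ± 0.23 and 1.61 ± 0.21. For GC+GW9662 against Control the difference was -1.10 ± 0.20. It was -0.61 under median-ratio scaling, -0.50 under quantile normalization and 0.06 ± 0.23 with the length trend removed, so its direction was not stable.

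Btc encodes betacellulin, which binds EGFR and ERBB4, at chr5:91357261-91402994 on the minus strand. It was at 0.234 and 0.0437 TPM in Control, 0.124, 0 and 0.12 TPM in GC, and 0.289, 0 and 0.314 TPM in GC+GW9662. These are 0 to 14 reads per library and the groups overlapped, so no difference was detectable at this depth. Btc closes a cluster of 376 kb with Epgn, Ereg and Areg. Epgn (epigen) had 0 to 5 reads, and the predicted gene Gm19619, which lies between Areg and Btc and was noticed after its values were seen, had 18, 7 and 11 reads in GC and 0 in the other 5 libraries. Of the 4 ligand genes of the cluster, Ereg alone exceeded 5 TPM anywhere.

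Egfr encodes the receptor for all 5 ligands and spans chr11:16752203-16918158. Its levels were 29.6 and 27.3 TPM in Control, 2.36, 11.1 and 8.02 TPM in GC, and 3.99, 3.71 and 3.8 TPM in GC+GW9662. Both Control libraries lay above all others, while GC replicate 1 was below GC+GW9662 and GC replicates 2 and 3 were above it. The Control mean of 28.5 ± 1.66 TPM was 3.97 times the GC mean of 7.17 ± 4.44 and 7.42 times the GC+GW9662 mean of 3.83 ± 0.145. On the log2 scale GC differed from Control by -2.04 ± 0.47, by -1.49 ± 0.17 without GC replicate 1 and by -0.99 ± 0.25 with the length trend removed. GC+GW9662 differed from Control by -2.61 ± 0.47, and by -1.02 ± 0.25 with that trend removed. Whether GW9662 changed Egfr in dexamethasone was not resolved: the difference was -0.57 ± 0.42, ranging from -1.11 without GC replicate 1 to -0.03 with the trend removed. Egfr is one of the longest compared genes, with 11326 exon bases.

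Erbb2 encodes the ligandless partner receptor, at chr11:98412470-98437716. It stood at 6.1 and 5.74 TPM in Control, 1.46, 5.57 and 4.49 TPM in GC, and 2.11, 0.822 and 2.02 TPM in GC+GW9662. GC replicate 1 set the GC mean apart, since the other GC libraries were just under Control. GC differed from Control by -0.63 ± 0.43, by -0.20 ± 0.28 without that replicate, by -0.01 ± 0.30 with the length trend removed and by 0.04 under quantile normalization. GC+GW9662 lay below both Control libraries, by -1.43 ± 0.43, a value of -0.45 ± 0.30 with the trend removed. Against GC the difference was -0.79 ± 0.39 with overlap, and -1.22 ± 0.25 without GC replicate 1. The gene shares 9 bases with Mien1, which reached 439.6 TPM, so a few of its reads could be those of its neighbour.

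Erbb3, the partner receptor with a weak kinase, lies at chr10:128567523-128589652 on the minus strand. Its levels were 0.314 and 0.19 TPM in Control, 0.533, 0.261 and 0.188 TPM in GC, and 0.612, 0.38 and 0.285 TPM in GC+GW9662, or 13 to 38 reads. All groups overlapped. Erbb4, the fourth receptor and no member of the set, was at most 0.0157 TPM.

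Errfi1, the inhibitor of the EGFR kinase and itself induced by that pathway and by glucocorticoids, lies at chr4:150853919-150868892. It was the most abundant member outside GC, at 145 and 142 TPM in Control, 134, 268 and 226 TPM in GC, and 55.9, 50.2 and 58.8 TPM in GC+GW9662. GC replicate 1 lay just under Control and the other GC libraries above it, while every GC+GW9662 library was below all others. GC exceeded Control by 0.48 ± 0.26 with that overlap, by 0.77 ± 0.12 without GC replicate 1 and by 0.28 without GC replicate 2. With the length trend removed it was 0.96 ± 0.19, and under median-ratio scaling 1.03. GC+GW9662, at 54.9 ± 4.39 TPM, was lower than GC (209 ± 68.5) by a factor of 3.81, or -1.85 ± 0.23, and lower than Control (143 ± 2.34) by a factor of 2.61, or -1.37 ± 0.26. The latter was -0.82 ± 0.19 with the length trend removed and -0.69 under median-ratio scaling. Hbegf over Errfi1 was 0.137 and 0.124 in Control, 5.35, 5.57 and 5.51 for GC, and 0.167, 0.163 and 0.163 with GW9662, so each GC library held more ligand than inhibitor transcript and every other library less.

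**Figure D3:**
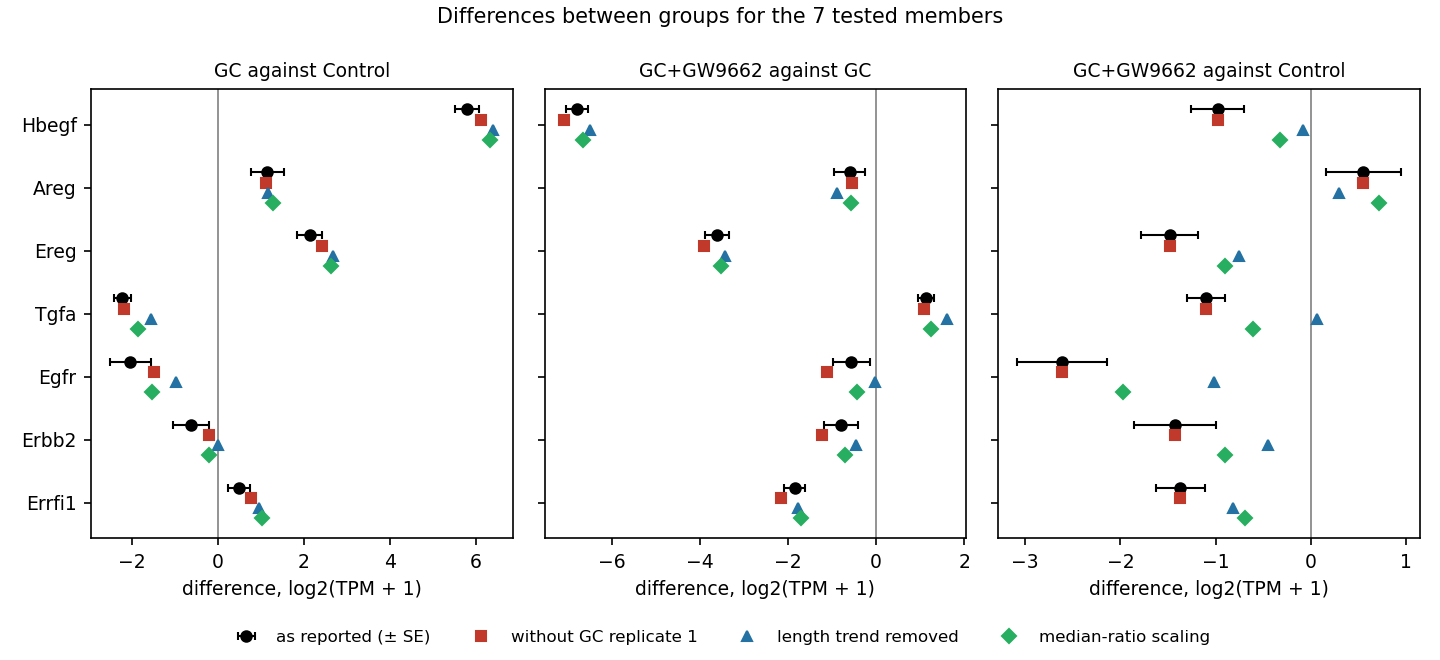
Differences in log2(TPM + 1) of the 7 compared members for GC against Control, GC+GW9662 against GC and GC+GW9662 against Control; black circles are the values of the report ± SE, red squares leave out GC replicate 1, blue triangles have the length trend removed and green diamonds use median-ratio scaling. Hbegf, Ereg and Tgfa keep their direction in the first 2 panels, with shifts in size. In the panel of GC+GW9662 against Control most values move toward 0 with the length trend removed.

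The plot of member differences shows where the processing mattered. For Hbegf the 4 settings gave 5.80 to 6.41 for GC against Control, but for Egfr they gave -2.04 to -0.99. In GC+GW9662 against Control, Egfr stayed at -1.02 or lower under all 4 settings, and Tgfa crossed 0 under 1 of them. The comparisons share libraries, so their values stand side by side and are not independent of each other.

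Summed over the family, the balance of ligand to receptor transcript differed between groups. The 5 ligands together were 33.6 and 31.4 TPM in Control, 747, 1551 and 1297 TPM in GC, and 14.7, 13.2 and 14.9 TPM in GC+GW9662. The 3 receptors together were 36.1 and 33.2 TPM, then 4.35, 16.9 and 12.7 TPM, then 6.71, 4.91 and 6.1 TPM. Ligand over receptor TPM was thus 0.932 and 0.944 in Control, 171, 91.5 and 102 for GC, and 2.19, 2.69 and 2.44 with GW9662, with no overlap between groups. GC+GW9662 held the least ligand, yet its ratio stood above that of Control, since its receptor sum was lower by a larger factor. That sum is mostly Egfr, whose difference from Control went from -2.61 to -1.02 with the length trend removed, and the ratios carry no such adjustment. TPM is per gene length, so these sums compare transcript numbers and not protein.

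**Figure D4:**
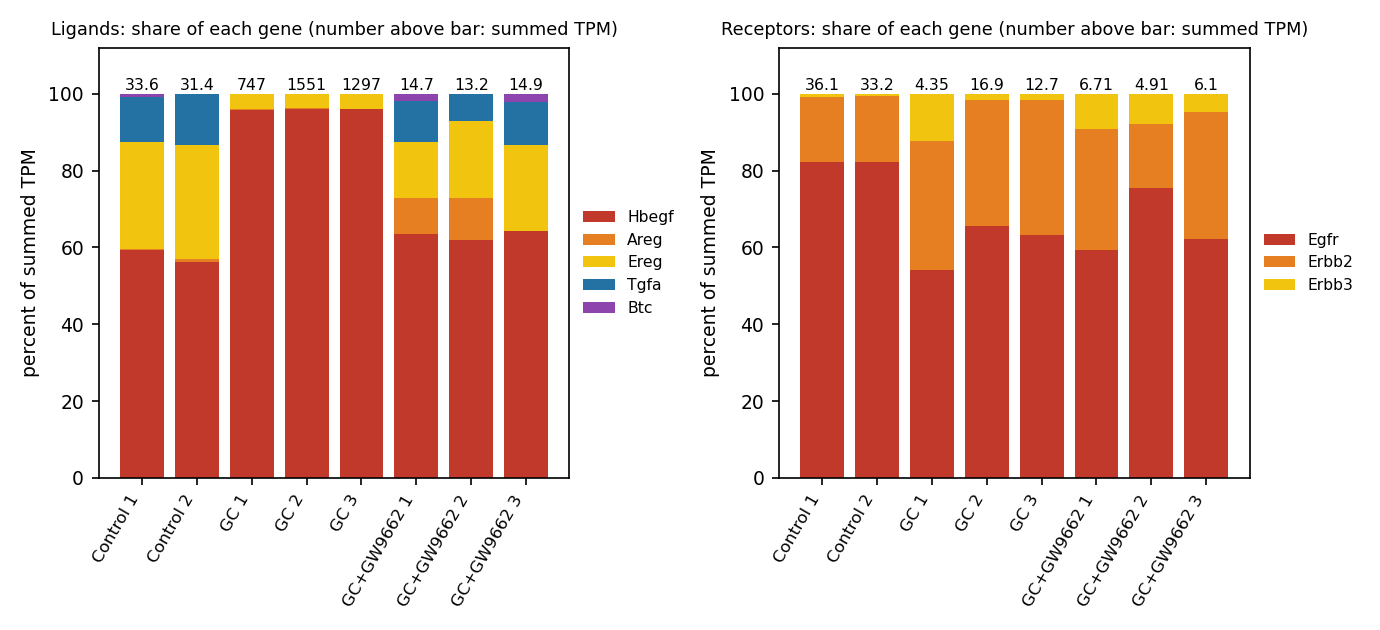
Share of each gene in the summed TPM of the 5 ligands (left) and the 3 receptors (right), one bar per library, with the summed TPM above the bar. Hbegf makes up 95.9 to 96% of ligand TPM in GC and 56.1 to 64.4% elsewhere, and Egfr makes up 82.2% of receptor TPM in both Control libraries.

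The bars of family composition show that Hbegf was the leading ligand in every library. Its share of ligand TPM was 59.3 and 56.1% in Control, 95.9, 96 and 96% for GC, and 63.5, 62 and 64.4% with GW9662. Ereg was the second ligand in all 8. Egfr led the receptors throughout, with 82.2% in each Control library, 54.3 to 65.6% in GC and 59.5 to 75.5% in GC+GW9662. The ratio of Egfr to Erbb2 lay in the ranges 4.76 to 4.86, 1.62 to 2 and 1.88 to 4.52, so its GC+GW9662 values overlapped those of GC.

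Other genes of the pathway were taken from 6 lists of 99 genes, of which 91 were compared by limma at a Benjamini-Hochberg adjusted p of 0.05. In GC against Control 17 rose and 47 fell, with 16.2% of all genes rising and 39.1% falling. In GC+GW9662 against GC 14 rose and 48 fell, with 28.3% and 33.5% of all genes. In GC+GW9662 against Control 2 rose and 78 fell, with 14.1% and 48.6% of all genes. With the length trend removed, 27 rose and 30 fell in the first comparison, beside 4266 and 4006 of all 14985 genes. In the last, 10 rose and 38 fell, beside 3543 and 3412 of all genes. Counts of single lists under that setting, given below, stand against these numbers. Removing the trend also centres the values: median-ratio scaling, which centres alone, gave 24 and 35 in the first and 11 and 57 in the last. Over all genes it gave 4072 rises and 3946 falls in the first and 4411 and 4687 in the last. For GC against Control, 27 fell without Control replicate 1 and 29 without Control replicate 2, and for GC+GW9662 against Control 1 rose without Control replicate 1. The list medians were -0.84, -0.62 and -1.43, against -0.38, -0.11 and -0.49 for all genes.

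**Figure D5:**
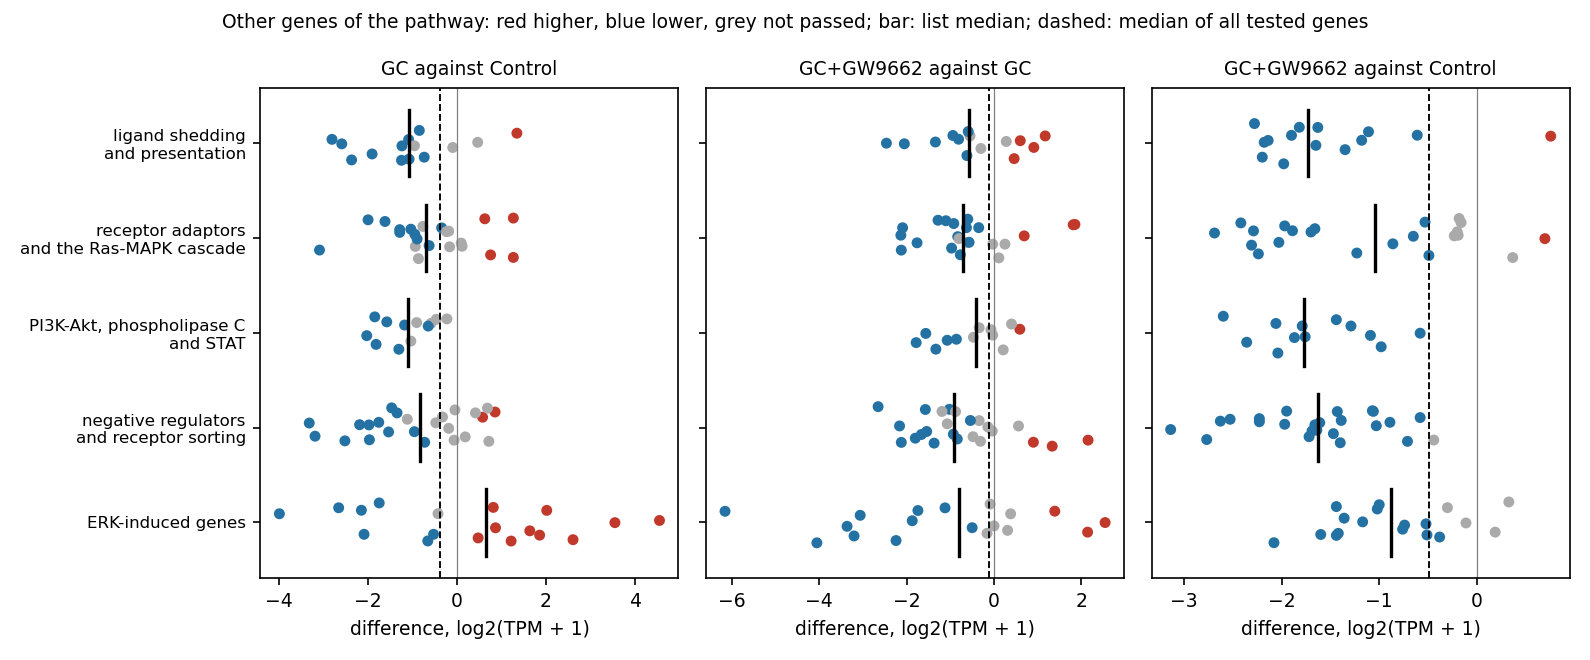
Differences in log2(TPM + 1) of pathway genes by list in the 3 comparisons; each dot is a gene, red if it rose, blue if it fell and grey if it did not pass the limma test, short bars are list medians and dashed lines the medians of all compared genes. In GC against Control the ERK-induced genes have a median of 0.65 and spread to both sides, while the other 4 lists have medians from -1.10 to -0.69.

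Genes of ligand shedding mostly fell in GC against Control, with 7 falls and 2 rises of 14 once the length trend was removed. Without that step 10 fell (71.4%) and 1 rose (7.14%), with 39.1% and 16.2% of all genes. The gene that rose was Rhbdf2, which encodes iRhom2, a partner that brings ADAM17 to the cell surface: it stood at 13.5 and 13.9 TPM in Control and 26.4, 47.3 and 38.7 TPM in GC (1.35 ± 0.23, adjusted p = 0.0016). With GW9662 it was 5.53, 5.82 and 6.14 TPM, lower than GC by -2.46 ± 0.21 (adjusted p = 3.5e-05). Adam17, the main sheddase of Hbegf, Areg, Ereg and Tgfa, was 70.9 and 65.4 TPM in Control, 18.1, 52.4 and 44.3 TPM in GC, and 15.5, 10.8 and 13.7 TPM with GW9662. Its difference for GC against Control did not pass (-0.95 ± 0.40, adjusted p = 0.077), though it did without GC replicate 1 (-0.49, adjusted p = 0.035) or GC replicate 2 (-1.23, adjusted p = 0.025), and for GC+GW9662 against GC it fell (-1.34 ± 0.36, adjusted p = 0.012). Adam10, which releases Btc, fell in GC against Control by -0.84 ± 0.29 (adjusted p = 0.037), a call lost under 13 alternatives with adjusted p up to 0.3, leaving out any library other than GC replicates 1 and 2 among them. Timp3, the tissue inhibitor of ADAM17, fell from 176 to 24.8 TPM in GC (-2.80 ± 0.20, adjusted p = 1.5e-05) and rose to 46.8 TPM with GW9662 (0.91 ± 0.18, adjusted p = 0.0032). Nrd1, the table's symbol for nardilysin, an enhancer of Hbegf shedding, fell with GW9662 by -2.05 ± 0.39 (adjusted p = 0.0024).

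The signalling genes split. Among 22 adaptors and members of the Ras-MAPK cascade, 4 rose (18.2%) and 10 fell (45.5%) in GC against Control. These shares lie near the 16.2% and 39.1% of all genes. With the length trend removed, 6 of the 22 rose and 5 fell. Hras rose by 1.27 ± 0.12 (adjusted p = 5.2e-05) and the kinase gene Map2k2 by 0.76 ± 0.10 (adjusted p = 4.4e-04). Mapk3, which encodes ERK1, fell from 246 ± 0.542 to 61 ± 2.59 TPM (-1.99 ± 0.10, adjusted p = 3.1e-06) and rose to 216 TPM with GW9662 (1.81 ± 0.09, adjusted p = 2.8e-06). Rps6ka1, a kinase downstream of ERK, moved the same way, by -3.08 ± 0.21 and then 1.85 ± 0.19 (adjusted p = 1.0e-05 and 8.7e-05). Of 12 genes of the PI3K-Akt, phospholipase C and STAT routes, 7 fell (58.3%) in GC against Control, with 39.1% of all genes. Stat5a fell by -1.84 ± 0.21 (adjusted p = 1.9e-04), and none of the 12 had a difference above 0. With the length trend removed, 6 of these 12 fell and 2 rose.

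ERK-induced genes were the one list whose median lay above 0 in GC against Control. Of 18, 10 rose (55.6%) and 7 fell (38.9%), with 16.2% and 39.1% of all genes. With the length trend removed 10 rose and 4 fell. Dusp5, a nuclear ERK phosphatase, stood at 12.7 and 12 TPM in Control, 139, 170.1 and 157 TPM in GC, and 15.1, 16.4 and 11.5 TPM in GC+GW9662. It rose by 3.55 ± 0.17 (adjusted p = 2.0e-06) and fell with GW9662 by -3.36 ± 0.15 (adjusted p = 1.5e-06). Junb, an AP-1 subunit, did likewise, from 185 ± 8.32 to 675 ± 89.9 TPM (1.86 ± 0.13, adjusted p = 1.2e-05) and to 141 TPM with GW9662 (-2.24 ± 0.12, adjusted p = 2.6e-06). The list did not move as a whole. Dusp6, the cytoplasmic ERK phosphatase, fell from 128 ± 1.12 to 19.7 ± 2.2 TPM (-2.65 ± 0.12, adjusted p = 1.8e-06) and rose with GW9662 to 89.9 TPM (2.14 ± 0.11, adjusted p = 2.8e-06). Ccnd1, which encodes cyclin D1, fell from 318 to 19.6 TPM (-3.98 ± 0.21, adjusted p = 2.9e-06) and rose to 117 TPM (2.54 ± 0.18, adjusted p = 1.6e-05). Myc fell in GC against Control, from 43.1 to 9.53 TPM (-2.08 ± 0.24, adjusted p = 1.7e-04). It was lower by as much in GC+GW9662, at 9.56 TPM (-2.08 ± 0.24, adjusted p = 0.0012). Its difference between GC+GW9662 and GC did not pass (-0.00 ± 0.21, adjusted p = 0.99).

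Of 24 negative regulators other than Errfi1, 12 fell (50%) and 2 rose (8.33%) in GC against Control, with 39.1% and 16.2% of all genes. In GC+GW9662 against Control 23 fell (95.8%, with 48.6% of all genes) and none had a difference above 0. With the length trend removed, 8 fell and 7 rose in the first of these comparisons, and 13 fell and 1 rose in the latter. Spry1, an inhibitor of Ras-MAPK signalling, fell from 49 to 4.57 TPM (-3.18 ± 0.17, adjusted p = 3.2e-06), while its relative Spry2 rose from 16.2 to 31.1 TPM (0.86 ± 0.26, adjusted p = 0.021), a call lost under 6 alternatives, among them those without Control replicate 1 (adjusted p = 0.073), Control replicate 2 (0.12) or GC replicate 3 (0.064). Sh3kbp1, an adaptor of receptor endocytosis, fell by -3.31 ± 0.28 (adjusted p = 3.1e-05). In GC+GW9662 against GC, 12 of the 24 fell (50%) and 3 rose (12.5%), with 33.5% and 28.3% of all genes. The endosomal sorting genes Stam and Stam2 fell by -2.12 ± 0.28 and -2.16 ± 0.27 (adjusted p = 3.6e-04 and 2.8e-04). Spry1 rose by 2.15 ± 0.15 (adjusted p = 1.3e-05) and Sh3kbp1 by 1.33 ± 0.25 (adjusted p = 0.0022). Of 7 other ligand and receptor genes, Nrg1, a ligand of ERBB3 and ERBB4, alone was compared, and fell in GC from 2.57 to 0.77 TPM (-1.02 ± 0.22, adjusted p = 0.0049), a call lost with quantile normalization or with the length trend removed.

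The genes most like a member over the 8 libraries were named by Pearson's r of log2(TPM + 1), as a description in which 3 group levels make most of the likeness. For Hbegf they were Psme3, Serpini1, Junb and Ier5, each at 0.999. Junb was also on the list of ERK-induced genes. For Ereg they were Nup54 at 0.999 and Osgin1, Ets2 and Ppid at 0.998. For Egfr they were Arhgef7, Igf2r, Kidins220 and Myo9b, each at 0.999, and all 4 are long, with 7496 to 15751 exon bases. For Areg the closest were Mir24-2 at 0.911, Snora57 at 0.905, Msh5 at 0.895 and Tnfsf4 at 0.871, so no gene matched it closely. Among members, Egfr and Erbb2 correlated at 0.88, Ereg and Errfi1 at 0.94, Hbegf and Tgfa at -0.79, and Hbegf and Egfr at -0.05.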

How the data were processed

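RNA of 8 libraries was made with the Smart-Seq2 protocol, per the labels, and the authors deposited their TPM values in a single table. Per the submitters' processing notes fastp, HISAT2 2.1.0 and featureCounts were used; in which order, and with which build and annotation, is not given in the sources used here. This table held 54232 rows. Dates were turned back into gene symbols in 27 cases by Ensembl ID, and genes on more than 1 row were used once. For 97.6% of genes the coordinates matched GENCODE M21. Reads were estimated from TPM steps (11693 genes whole at the M21 exon length and 14760 at a length fitted to their values, among 26812 above 0, tolerance 0.02 reads); amplified reads are not independent molecules.

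Genes with at least 1 TPM in 2 libraries were put on the log2(TPM + 1) scale and fitted by limma (version 3.58.1, R 4.3.3, data.table package, version 1.17.8), one mean per group over all 8 libraries, a trended prior, and two-sided p-values adjusted by Benjamini-Hochberg (threshold 0.05, each comparison alone), after a test on simulated data. Fold changes on this scale understate those of low genes. Tables and figures used Python 3.11.15, numpy 2.4.6, pandas 2.3.3 and matplotlib 3.10.9. The members and gene lists were chosen with earlier results of these data known. Named were all members, of each list and comparison up to 2 called genes per direction with the smallest adjusted p (fewer are described here), Erbb4, Egf, Epgn, Adam17 and Adam10, and the 4 genes most like Hbegf, Areg, Ereg and Egfr. Alternatives covered pseudocount, filter, scaling, length trend, prior, groups fitted, replicate block and each library left out; voom on estimated reads was added after the data were seen.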

Additional observations from a re-analysis of the deposited data

How the results depend on the processing

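Of 435 values of the members' differences over 21 alternatives, 381 moved by less than 1 replicate SD, 52 by more and 2 changed sign: Erbb2 in GC against Control was 0.04 under quantile normalization, and Tgfa in GC+GW9662 against Control was 0.06 with the length trend removed. With that trend removed, Etv1 (0.30), Nrg1 (0.27) and Pdpk1 (0.27) also changed sign in GC+GW9662 against Control. The cause was not tested.

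In GC against Control, 2428 genes rose and 5863 fell. The rises were 4072 under median-ratio scaling, 4187 under quantile normalization and 4266 with the length trend removed, beside 3946, 3915 and 4006 falls. For pathway genes the length trend took 17 rises to 27 and 47 falls to 30. In GC+GW9662 against GC, voom took 14 pathway rises to 22. In GC+GW9662 against Control, 2114 rises became 4411 under median-ratio scaling, 4216 under quantile normalization, 3543 with the length trend removed and 3423 in voom, and 7284 falls became 4687, 4443 and 3412 under the first 3. Its 2 pathway rises became 11, 5, 10 and 5 in that order, and its 78 pathway falls 38 with the length trend removed.

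Leaving out 1 library at a time gave 1637 to 3009 rises and 3876 to 6303 falls in GC against Control (3876 without Control replicate 1), 13 to 21 and 27 to 55 for its pathway genes, 3516 to 4446 rises and 3762 to 6313 falls in GC+GW9662 against GC, 13 to 16 and 32 to 63 for its pathway genes, and 902 to 2580 rises and 4696 to 7749 falls in GC+GW9662 against Control (902 and 4696 without Control replicate 1, 1261 rises without Control replicate 2), with 1 to 3 and 61 to 81 for its pathway genes.

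Numbers shared between groups gave no sign of pairing: deviations of same-numbered GC and GC+GW9662 libraries correlated at -0.10, -0.12 and 0.08. Deviations from the mean of so few libraries cannot exclude pairing. With the title number as a replicate block, 1999 genes rose and 5146 fell in GC against Control, 3850 and 4501 in GC+GW9662 against GC, and 1780 and 6588 in GC+GW9662 against Control. Depth limits Areg, Btc, Erbb3 and, in GC, Tgfa, each at under 40 reads per library there.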
